A study of Mus musculus with 4 samples.

Results

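The genes of Wnt signalling at the cell surface were examined for binding of Tfcp2l1, a CP2-type DNA-binding protein known for its role in naive mouse embryonic stem cells. They were all the protein-coding RefSeq genes of GRCm38 whose symbol is Wnt, Fzd, Sfrp or Dkk followed by a digit, together with Frzb, Wif1, Lrp5 and Lrp6. The rule gave 41 of 21887 protein-coding genes: 19 ligands, 12 receptors (10 Frizzled genes and the co-receptors Lrp5 and Lrp6) and 10 secreted antagonists. Chromatin immunoprecipitation and sequencing (ChIP-seq) had been done in 2 repeats, each with 1 Tfcp2l1 ChIP library and 1 input library, which is sheared chromatin without immunoprecipitation. The 4 libraries came from wild-type mouse embryonic stem cells, with 10 µg of antibody in each immunoprecipitation. All cells were grown with 1000 units/mL of LIF, 3 µM CHIR99021 and 1 µM PD0325901. The sources used here do not name the cell line and do not say whether the repeats were separate cultures, and their spread may therefore be technical.

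Wnt proteins are lipid-modified secreted ligands that bind a Frizzled receptor together with Lrp5 or Lrp6. This engagement blocks the kinase GSK3 and stabilises beta-catenin, which then acts with Tcf and Lef factors in the nucleus. Secreted antagonists work outside the cell: Sfrp proteins, Frzb and Wif1 bind Wnt ligands, while Dkk1, Dkk2 and Dkk4 act on Lrp5 and Lrp6. In mouse embryonic stem cells beta-catenin favours naive self-renewal. CHIR99021 inhibits GSK3 directly, downstream of these ligands, receptors and antagonists, and was present in every library.

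The authors called peaks in each repeat on its own, 57614 in repeat 1 from 19353473 filtered ChIP tags and 51610 in repeat 2 from 22555373. A site was counted at a gene when peaks of both repeats overlapped by at least 1 bp and both summits lay inside the gene or within 10 kb of its ends. Fold enrichment is the authors' value for a single peak, ChIP over the local background from input, and had a median over all 43045 shared sites of 15.5 in repeat 1 and 11.8 in repeat 2. The smallest peaks held 16 and 18 ChIP tags, and binding too weak to be called as a peak is not seen here. Positions are in GRCm38. Where 2 values are joined by "and" without further label, the first is repeat 1 and the second repeat 2.

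RefSeq promoter windows, from 250 bases before to 50 bases after a start, were available for 27 of the 41 genes, as 30 windows in GRCm38.p6, and peaks of both repeats overlapped 6 of them. The share of windows overlapped in this way over all protein-coding genes was not computed, so this count has no background. These 6 windows are shown because they are the start regions that peaks of both repeats reach. The summits of these peaks lay outside all 6 windows, in both repeats. They belong to 3 Frizzled genes, Fzd9 (chr5:135250998-135251297, minus strand), Fzd4 (chr7:89404116-89404415, plus strand) and Fzd10 (chr5:128600856-128601155, plus strand). The others were the more downstream of the 2 listed starts of Wnt11 (chr7:98838595-98838894, plus strand), 1 of the 3 listed starts of Wnt5b (chr6:119449337-119449636, minus strand) and Wif1 (chr10:121033754-121034053, plus strand). Capitals mark CCNG, then 6 bases of any kind, then CCNG again, on either strand, a spaced pair of half-sites of the kind that CP2 factors are known to bind.
Fzd9: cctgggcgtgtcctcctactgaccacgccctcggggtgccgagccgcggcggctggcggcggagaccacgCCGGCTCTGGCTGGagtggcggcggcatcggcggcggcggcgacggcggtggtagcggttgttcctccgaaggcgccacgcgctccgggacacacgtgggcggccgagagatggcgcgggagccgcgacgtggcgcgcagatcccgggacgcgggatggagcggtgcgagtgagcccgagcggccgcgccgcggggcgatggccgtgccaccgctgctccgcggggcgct
Fzd4: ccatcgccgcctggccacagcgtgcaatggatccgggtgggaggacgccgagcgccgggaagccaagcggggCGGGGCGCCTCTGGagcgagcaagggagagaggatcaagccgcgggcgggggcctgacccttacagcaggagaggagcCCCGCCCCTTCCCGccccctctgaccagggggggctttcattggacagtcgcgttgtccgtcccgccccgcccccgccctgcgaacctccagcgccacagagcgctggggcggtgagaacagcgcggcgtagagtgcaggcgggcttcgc
Fzd10: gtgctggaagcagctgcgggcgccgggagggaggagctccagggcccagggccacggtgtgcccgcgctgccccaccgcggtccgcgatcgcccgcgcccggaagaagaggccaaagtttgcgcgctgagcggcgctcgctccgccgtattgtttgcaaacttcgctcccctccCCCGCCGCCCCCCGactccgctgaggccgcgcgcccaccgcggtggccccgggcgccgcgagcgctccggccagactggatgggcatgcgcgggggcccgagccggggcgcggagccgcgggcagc
Wnt11: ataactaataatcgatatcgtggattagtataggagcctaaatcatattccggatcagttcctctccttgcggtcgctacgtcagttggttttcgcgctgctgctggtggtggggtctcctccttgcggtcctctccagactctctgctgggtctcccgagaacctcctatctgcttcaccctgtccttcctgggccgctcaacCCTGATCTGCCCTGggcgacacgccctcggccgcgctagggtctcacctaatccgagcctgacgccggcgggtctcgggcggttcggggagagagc
Wnt5b: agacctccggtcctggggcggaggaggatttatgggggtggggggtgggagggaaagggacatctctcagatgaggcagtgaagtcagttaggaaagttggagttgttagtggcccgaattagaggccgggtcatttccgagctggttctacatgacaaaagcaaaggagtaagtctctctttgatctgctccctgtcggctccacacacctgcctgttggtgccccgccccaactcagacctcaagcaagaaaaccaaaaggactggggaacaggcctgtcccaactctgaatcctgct
Wif1: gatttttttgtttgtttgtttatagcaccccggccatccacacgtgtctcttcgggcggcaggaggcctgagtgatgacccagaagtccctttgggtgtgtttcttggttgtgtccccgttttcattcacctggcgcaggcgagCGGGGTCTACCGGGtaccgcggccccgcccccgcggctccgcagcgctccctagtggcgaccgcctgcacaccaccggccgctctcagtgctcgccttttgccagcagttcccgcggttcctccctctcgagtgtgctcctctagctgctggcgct

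The capitals stood in 5 of the 6 windows. The match began 180 bases before the start at Fzd9, 178 and 100 bases before it at Fzd4, 76 at Fzd10, 46 at Wnt11 and 106 at Wif1, and the Wnt5b window held none. These letters stood in 18 of the 30 windows of the 27 genes (60.0%), against 7370 of the 21263 windows of all protein-coding genes (34.7%). Median GC content was 66.5% in the 30 windows and 56.3% in all windows, and the part of base composition in the match rate was not tested. The stricter pair, with CCAG at both places and the same spacing, stood in 1 of the 30 windows (3.33%) and in 3.48% of all windows. In the windows of any protein-coding gene that held both summits of a shared site, the wider pair stood in 55.8% and the stricter pair in 7.41%. None of the 6 printed windows held a summit of its site, so these rates are of a different kind of window.

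Of the 41 genes, 31 had at least 1 site found in both repeats (75.6%, exact 95% interval 59.7% to 87.6%, counting error only), against 64.5% of all protein-coding genes and 66.9% of autosomal ones. All 41 genes are autosomal. By class the counts were 13 of 19 ligands (68.4%), 10 of 12 receptors (83.3%) and 8 of 10 antagonists (80.0%), with intervals of 43.4% to 87.4%, 51.6% to 97.9% and 44.4% to 97.5%. Each of these intervals holds the value for all protein-coding genes, and each overlaps the others. The order of the classes depended on weak sites: with at least 10-fold enrichment in both repeats, 12 ligands, 9 receptors and 4 antagonists had a site, against 50.0% of all protein-coding genes. With scores of at least 100 the counts were 12, 9 and 5, against 55.0%, so the antagonists then stood below both other classes and below the share of all genes. A further 6 genes had peaks in 1 repeat without a match in the other. Among all 21887 protein-coding genes, 2011 had peaks but no shared site. The last 4 members had no peak in either repeat (9.76%, against 26.3% of all protein-coding genes).

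With a window of 1 kb, 29 of the 41 genes had a site, against 51.4% of all protein-coding genes, and with a window of 50 kb 40 had one, against 80.6%.

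Gene length moved with these shares. Members shorter than 10 kb had a site in 10 of 16 cases, where 46.7% of all genes of that length had one. Those of 10 to 50 kb had one in 15 of 19, against 70.8%, and those of 50 kb and longer in 6 of 6, against 81.5%. The Frizzled genes are mostly short: 8 of the 10 are under 10 kb, and 6 of these 8 had a site.

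The 31 genes held 76 distinct sites, 35 at ligands, 24 at receptors and 17 at antagonists. Per 10 kb of window this was 0.380 sites at ligands, 0.401 at receptors and 0.334 at antagonists, against 0.245 over the windows of all protein-coding genes and 0.349 over those of genes shorter than 10 kb. With this definition of a site, the classes differed from each other by less than they did from the value over all genes, which is a description without a test. With at least 10-fold enrichment in both repeats, 19 sites remained at ligands, 16 at receptors and 8 at antagonists. Densities were not computed for that limit. In 14 genes there was 1 site, in 11 there were 2 or 3, and in 6 there were 5 or more, against 10.4% of all protein-coding genes with 5 or more. The 6 were Wnt6, Wnt3a, Wnt5b, Wnt3, Lrp5 and Sfrp1.

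**Figure D1:**
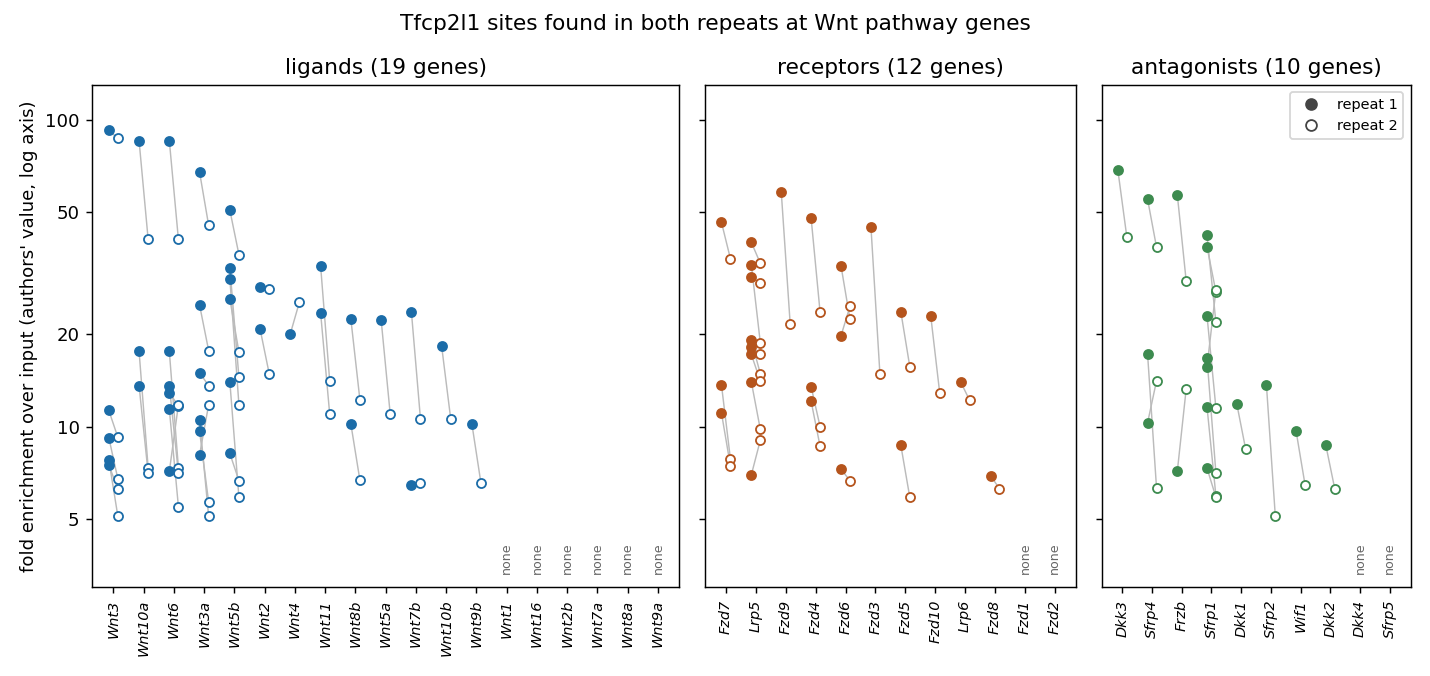
Fold enrichment over input (authors' value, log axis) of every site found in both repeats, by gene and class. Filled circles are repeat 1, open circles repeat 2, lines join the same site, and "none" marks the 10 genes without a shared site. Genes are ordered by the rank of their strongest site. Wnt3 stands highest, at 92.4 and 87.1, while the strongest receptor site in repeat 1 is that of Fzd9 at 58.4.

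Among the ligands the strongest site belonged to Wnt3, a beta-catenin-activating ligand required for primitive streak formation in the mouse. The site lay inside the gene at chr11:103815986-103817747, 1.06 kb from the end of the gene and 42.8 kb from its listed start. It held 366 ChIP tags in repeat 1 and 439 in repeat 2, with 92.4-fold and 87.1-fold enrichment. The site stood in the top 1.80% of peaks of repeat 1 and the top 0.512% of repeat 2 by fold enrichment. The gene's other 4 sites were between 7.49-fold and 11.3-fold for repeat 1 and between 5.10-fold and 9.23-fold for repeat 2, far below the strong one. All 5 sites lay inside the gene, 3 of them with repeat 1 summits between 4.45 and 7.41 kb from the end beside the strong one. The site of 11.3-fold and 9.23-fold joined 3 overlapping pairs of peaks. The summits of its strongest peaks in the repeats lay 1467 bp apart, the largest distance at the 76 sites. Wnt9b, a ligand of kidney development whose interval overlaps that of Wnt3, had 1 weak site of its own (10.2-fold and 6.54-fold).

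The neighbouring genes Wnt6 and Wnt10a shared the next strongest site. It lay inside Wnt10a, a ligand known from tooth and skin appendage development, at chr1:74794343-74795666, and 9.74 kb beyond the end of Wnt6. The site had 285 and 167 tags, and an enrichment of 85.5-fold for repeat 1 against 40.8-fold for repeat 2. Wnt6 and Wnt10a also shared the 2 sites at 17.6-fold and 7.35-fold and at 13.6-fold and 7.06-fold. The remaining 3 sites of Wnt6 were between 7.15-fold and 12.9-fold for repeat 1 and between 5.49-fold and 11.8-fold for repeat 2, and 1 of them lay inside Prkag3. The highest value of both genes thus belongs to a single site.

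Wnt3a, a beta-catenin-activating ligand needed for axis elongation in the mouse embryo, had 6 sites. The strongest stood inside the gene, 25.1 kb from the listed start, at chr11:59264997-59266234, with 242 and 209 tags and 67.5-fold and 45.3-fold enrichment. A second inside the gene had 24.9-fold and 17.7-fold. The site nearest to the start, 475 bp before it, had 10.5-fold and 5.10-fold, the lowest of the 6 in repeat 2. Wnt9a, the neighbour of Wnt3a and a ligand of joint development, had no peak in either repeat.

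Wnt5b, which like Wnt5a signals mostly without beta-catenin, had 6 sites along a gene of 112 kb. The strongest had 178 and 149 tags, with 50.8-fold and 36.4-fold enrichment, 1342 bp before 1 of its listed starts (chr6:119468040-119469123). The site over the promoter window printed above had 190 and 194 tags and 26.1-fold and 17.5-fold enrichment. Another had 33.0-fold and 14.5-fold, and a further one, 30.4-fold and 11.8-fold, lay inside the gene Fbxl14. Wnt5a had a single site, inside the gene, at 22.3-fold and 11-fold. The 5 sites of Wnt5b inside the gene stood within 50.7 kb of its lower-numbered end, and the rest of the gene held no shared site.

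The other ligands had 1 or 2 sites each with lower values. Wnt2, known from lung development, had 28.5-fold and 28.2-fold. This site lay inside the gene, 0.033 kb from its higher-numbered end, and 2.29 kb before the listed start, on the minus strand. Wnt4, known from kidney and female reproductive tract development, had 20.1-fold and 25.5-fold. Wnt11, a ligand of convergent extension movements, had 33.4-fold and 14.1-fold at its downstream start, 107 bp into the transcript. For Wnt8b, a forebrain ligand, the strongest site had 22.4-fold and 12.2-fold. Wnt7b, a ligand of lung and kidney development, had 23.7-fold and 10.6-fold, and Wnt10b, which favours bone formation, 18.3-fold and 10.6-fold.

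Ligands without a shared site numbered 6. Wnt1, the midbrain ligand, Wnt7a, which patterns the dorsal limb, Wnt9a and Wnt16 had no peak of either repeat in their windows. Their nearest shared sites lay 11.9, 17.5, 15.7 and 18.4 kb away, none above 10.5-fold in repeat 1. Wnt2b had a peak of repeat 1 only, 41 bp from an end of the gene, with 60 tags and a 19.8-fold value, the highest of the 29 peaks of repeat 1 without a match at these genes. Wnt8a had 1 peak of 6.69-fold, in repeat 1 alone. No receptor or antagonist was without any peak.

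**Figure D2:**
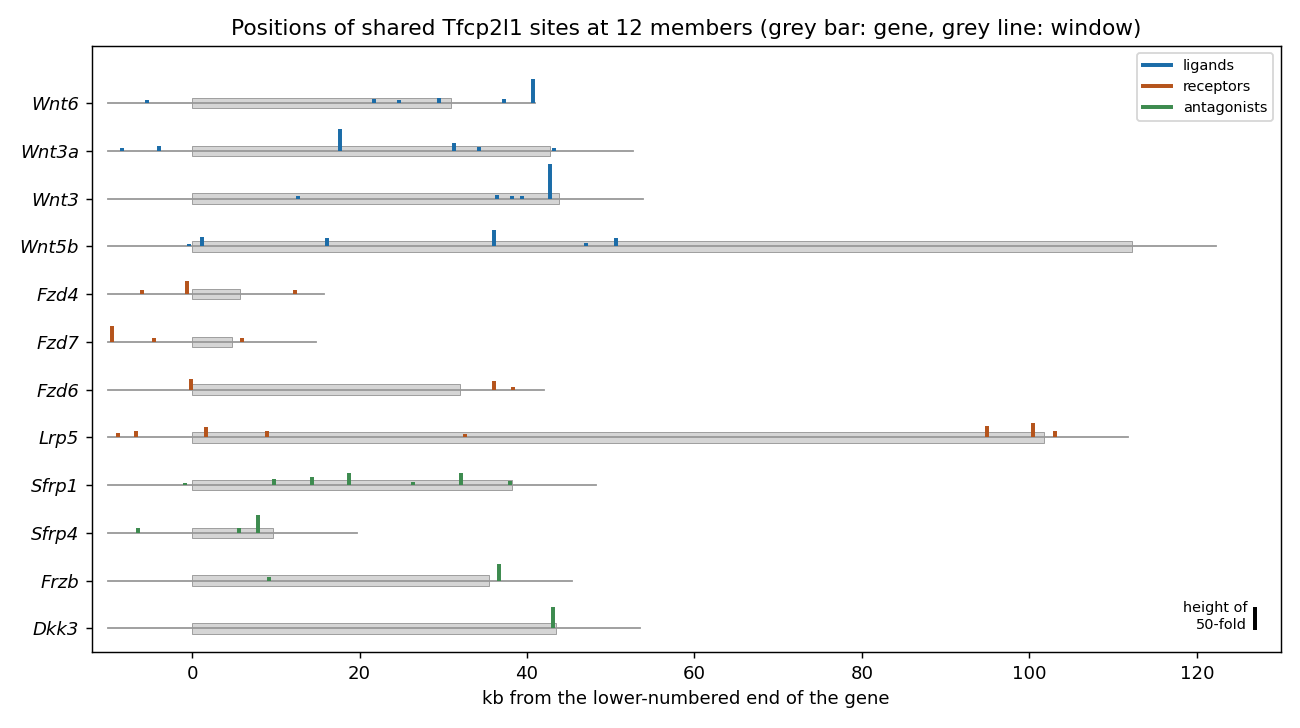
Positions of shared sites at 12 members, in kb from the lower-numbered end of each gene (grey bar, the gene; grey line, the window of 10 kb on either side). The height of a coloured tick is the mean fold enrichment of the 2 repeats, with a scale for 50-fold. Sites of Wnt3, Sfrp1 and Wnt5b lie mostly inside the genes, while those of Fzd4, Fzd6 and Fzd7 lie outside them.

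Sites of the Frizzled genes lay mostly outside the gene. Their median enrichment was 19.8-fold and 12.9-fold, against 15.9-fold and 11.8-fold at sites in the windows of all protein-coding genes. Fzd7, the Frizzled best known from pluripotent stem cells, ranked first among receptors. Its strongest site had 141 and 189 tags and 46.4-fold and 35.3-fold enrichment, 9.54 kb before the start (chr1:59472138-59473151). This lies just inside the 10 kb limit, and the remaining 2 sites had 13.7-fold and 7.86-fold, 4.51 kb before the start, and 11.1-fold and 7.46-fold, 1.14 kb past the end. With a window of 1 kb, Fzd7 had no site. Just beyond the limit for other genes, the next shared sites were 10.1 kb from Wnt5b (15.5-fold and 12.9-fold), 10.6 kb from Fzd10 (17.4-fold and 8.63-fold) and 10.9 kb from Wnt11 (10.2-fold and 6.54-fold).

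Fzd9, a Frizzled gene with roles in bone and the hippocampus, was enriched 58.4-fold for repeat 1 and 21.6-fold for repeat 2, with 232 and 108 tags, 304 bp before its start (chr5:135250492-135251946). The values of the repeats thus differed by 2.71 times. Fzd4, which also serves as the Norrin receptor of retinal vessels, had 217 and 150 tags and 47.8-fold and 23.6-fold, 575 bp before its start and inside the neighbouring gene Tmem135. Fzd10 had 23-fold and 12.9-fold, with the summit of repeat 1 at 358 bp after its start. The summit of repeat 2 lay 1031 bp from it, on the other side of the start, so the peaks of Fzd10 overlap without a common summit. These 3 were the receptor genes whose strongest site lay within 1 kb of a listed start, of 5 receptor genes with a listed start and a site. No share over all genes was computed for this count.

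Fzd3 and Fzd6, which act in planar cell polarity and axon guidance or hair patterning, each had a site at an end of the gene. That of Fzd6 lay 80 bp outside the gene with 33.4-fold and 22.4-fold enrichment, and a second, 3.97 kb outside, had 19.8-fold and 24.7-fold. The Fzd3 site lay 155 bp outside with 44.9-fold for repeat 1 and 14.9-fold for repeat 2, the largest ratio between repeats at any of the 76 sites (3.01). Fzd5, needed for eye and placental development, had 23.7-fold and 15.7-fold inside the gene. Fzd8 had a single weak site of 6.93-fold and 6.28-fold. Fzd1 and Fzd2 had peaks of repeat 1 alone, the highest 7.25-fold and 13.5-fold, and the nearest shared site to Fzd1 lay 278 kb away.

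The co-receptors differed in the number of sites. Lrp5, known for its control of bone mass, had 8 sites, the most of any member. Of these, 1 site of 14-fold and 9.81-fold lay inside the neighbouring gene Ppp6r3. The strongest of the 8 had 191 and 219 tags with 39.9-fold and 34.1-fold enrichment. It lay 1.31 kb inside the higher-numbered end of Lrp5 (chr19:3684662-3686020). Next to it stood sites of 30.8-fold and 29.4-fold and of 18.2-fold and 17.3-fold, and at the other end a group led by a site of 33.7-fold and 18.8-fold. Farther than 10 kb from both ends, 1 site of 6.97-fold and 9.03-fold was found, 32.6 kb from the nearer end. Lrp6, a co-receptor required for mouse development, is similar in length (120 kb against 102 kb for Lrp5) but had 1 site, at 14-fold and 12.2-fold.

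Of the Wnt-binding antagonists, Sfrp1 carried the most sites. Of its 7 sites, 6 lay inside the gene, which is 38.2 kb long. The strongest by rank had 124 and 130 tags with 38.6-fold and 27.5-fold enrichment (chr8:23429705-23430813), and another had 42-fold and 21.9-fold. A broader site reached 15.7-fold for repeat 1 and 27.9-fold for repeat 2, so the order of Sfrp1 sites differed between repeats. Sfrp4 had 3 sites, the strongest with 266 and 232 tags and 55.1-fold and 38.5-fold (chr13:19630566-19631873), 1.78 kb inside an end of the gene. Frzb, an antagonist known from cartilage, had 149 and 119 tags and 57-fold and 29.8-fold enrichment 1182 bp before its start (chr2:80448163-80448891).

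Sfrp2 and Sfrp5 stood low. Sfrp2 had 106 tags in repeat 1 and 27 in repeat 2, with 13.7-fold and 5.10-fold enrichment, 665 bp after its start. Sfrp5 had no shared site and 1 peak of 7.06-fold in repeat 2 alone, 9.60 kb from the gene. Wif1, which binds Wnt through its own domain, had 9.66-fold and 6.47-fold enrichment 467 bp before its start, below the median of all shared sites in both repeats.

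Among the Dkk genes, enrichment was high at Dkk3 only. Dkk3 is the divergent member of the family, whose product is not known as a typical Lrp5 and Lrp6 inhibitor. Its site had 354 and 259 tags and 68.5-fold and 41.6-fold enrichment, 0.400 kb inside an end of the gene (chr7:112157716-112159746). Dkk1, the inhibitor required for head formation, had 11.9-fold and 8.46-fold at 6.32 kb from the gene. Dkk2 had 8.70-fold and 6.28-fold, and Dkk4 only a peak of 6.93-fold in repeat 1. Dkk1 and Dkk2 thus had values below the median of all shared sites in both repeats.

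Position relative to the gene varied between the classes. Summits lay inside a gene of the class at 27 of 35 ligand sites (77.1%), 8 of 24 receptor sites (33.3%) and 11 of 17 antagonist sites (64.7%), against 76.0% of the sites in the windows of all protein-coding genes. Gene bodies made up 63.7%, 59.9% and 60.7% of the windows of these classes and 80.1% of those of all genes. At Frizzled genes 2 of 15 sites were inside. For the 8 Frizzled genes shorter than 10 kb this was 2 of 11 (18.2%), where gene bodies were 17.6% of the window, and over all genes of that length 31.7% of sites were inside with 20.9% of the window. Per 10 kb, Sfrp genes and Frzb had 1.04 sites inside the genes and 0.300 outside, against 0.232 and 0.296 for all protein-coding genes. Genes shorter than 10 kb in general had 0.531 inside and 0.301 outside, and the median length of Sfrp genes and Frzb was 9.65 kb. Sfrp1 gave 6 of their 10 inside sites, and without it the values were 0.691 and 0.250.

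**Figure D3:**
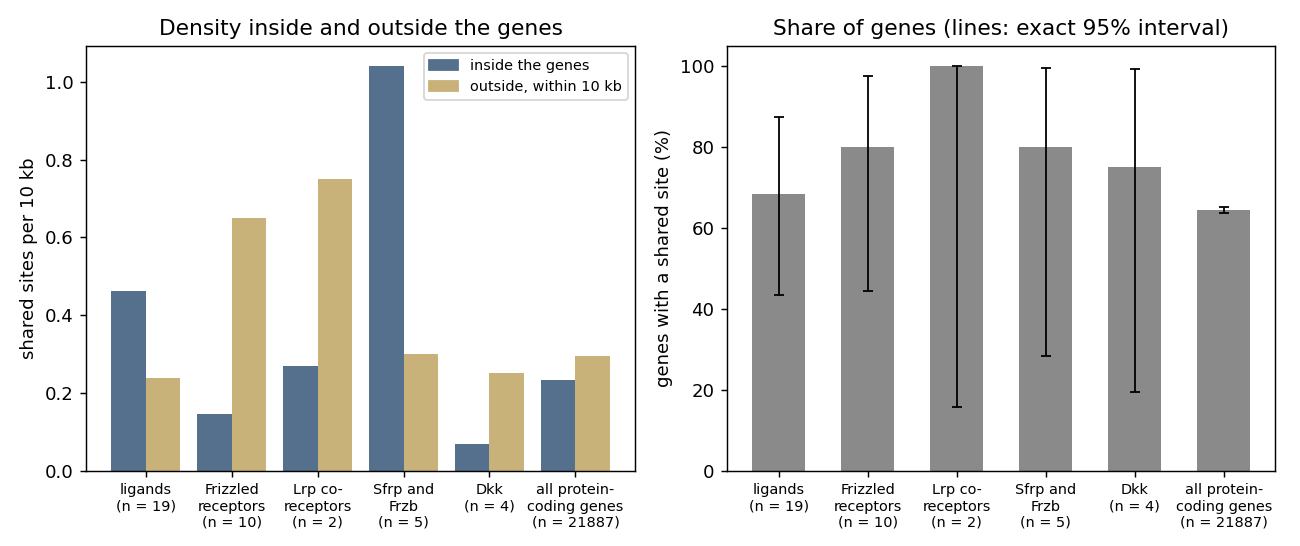
Left, shared sites per 10 kb inside the genes and outside them within 10 kb, for groups of members and for all protein-coding genes. Right, the percent of genes with a shared site, with exact 95% binomial intervals as lines. Sfrp genes with Frzb have the highest density inside, at 1.04, and Frizzled genes have 0.147 inside and 0.650 outside, but 0.585 and 0.562 over the 8 of them shorter than 10 kb, while the intervals of the shares overlap in every group shown.

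A shared site within 1 kb of a listed start was present at 8 of the 27 genes with a listed start (29.6%), against 26.6% of all protein-coding genes with one. They were Fzd4, Fzd9, Fzd10, Wnt3a, Wnt5b, Wnt11, Sfrp2 and Wif1. Of 20 genes with both a listed start and a site, the strongest site lay within 1 kb of a start at 6 and over 10 kb from every listed start at another 6 (Wnt3, Wnt3a, Wnt6, Wnt8b, Wnt9b and Dkk2). By class these strongest sites near a start numbered 1 of 10 ligands, 3 of 5 receptors and 2 of 5 antagonists. For the strongest site, no share over all protein-coding genes was computed, so these counts have no background.

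The level of enrichment at the 76 sites was close to that of shared sites in general. Their median was 17.2-fold in repeat 1 and 11.8-fold in repeat 2, against 15.5-fold and 11.8-fold over all shared sites. Class medians in repeat 1 were 17.6-fold at ligands, 18.6-fold at receptors and 15.7-fold at antagonists, and in repeat 2 they were 11-fold, 14.5-fold and 11.5-fold. In the top 10% of both peak lists were 7 of the 76 sites (9.21%), against 9.87% of all shared sites. These were 4 ligand sites, 1 receptor site and 2 antagonist sites.

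A site required overlapping peaks of both repeats, so closeness of the 2 summits was partly given by this definition. Among the 76 sites so chosen, summits lay a median of 28 bp apart, and 68 of 76 pairs were within 100 bp. Across the 76 sites, fold enrichment correlated between repeats with a Spearman rho of 0.808 and, on the log2 scale, a Pearson r of 0.841, against 0.817 and 0.868 across all shared sites. All points come from the same libraries, and these correlations are descriptions. Fold enrichment was higher in repeat 1 at 67 of 76 sites, with a median ratio of 1.48, where 78.3% of all shared sites were higher in repeat 1 with a median ratio of 1.32. Sites higher in repeat 2 included Wnt4, the second site of Fzd6, the broader site of Sfrp1 and the inner site of Frzb (7.15-fold and 13.3-fold).

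**Figure D4:**
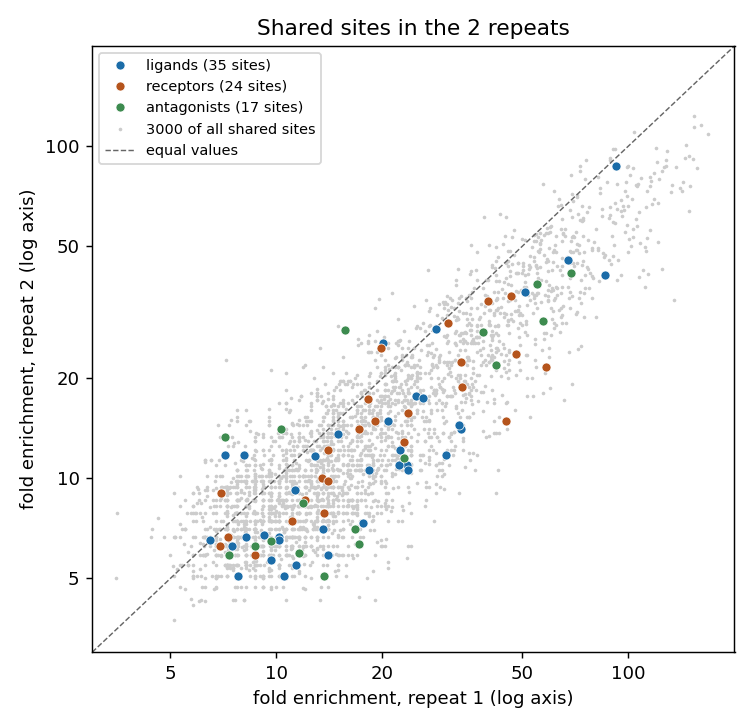
Fold enrichment in repeat 1 (horizontal) and repeat 2 (vertical), both on log axes, of the 76 sites by class and of 3000 of the 43045 shared sites in grey. Most coloured points lie below the line of equal values, as do most grey ones, and 67 of the 76 are higher in repeat 1.

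Peaks present in 1 repeat only were weak at these genes. In the windows they were 29 of 106 peaks of repeat 1 and 10 of 88 peaks of repeat 2. Over the whole lists, 76.1% of peaks of repeat 1 and 84.8% of repeat 2 were shared. The unmatched peaks at these genes had medians of 7.25-fold and 7.26-fold, with highest values of 19.8-fold at Wnt2b and 11.8-fold at Wnt11. The fold enrichment of unmatched peaks over all genes is not given here. With the peaks of a single repeat, 36 of the 41 genes had a peak in repeat 1, against 71.3% of all protein-coding genes, and 32 had one in repeat 2, against 68.1%.

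Other genes of the pathway were taken from 6 lists, which overlap in Notum. Of their 52 genes, 44 had a shared site (84.6%, exact interval 71.9% to 93.1%), against 64.5% of all protein-coding genes. Their median length was 34.5 kb, and of all genes of 10 to 50 kb 70.8% had a site and of longer ones 81.5%, so the counts of the lists are descriptions without a test. All 3 genes of Wnt secretion had one, led by Wls, the carrier of Wnt proteins to the cell surface, at 109-fold and 79.7-fold, and followed by Notum, a Wnt deacylase, at 22.8-fold and 24.7-fold, and by Porcn, the Wnt acyltransferase, at 24.6-fold and 20-fold. All 5 other receptors had one as well, with 65.4-fold and 67.9-fold at Ror2, a receptor of Wnt5a that held 18 sites, and 29.9-fold and 42-fold at Musk, a receptor kinase of the neuromuscular junction. In the R-spondin axis 7 of 9 did, led by Znrf3, a ubiquitin ligase that removes Frizzled from the surface (47.4-fold and 36.1-fold), and Lgr6, an R-spondin receptor (17.4-fold and 18.1-fold), and the ligands Rspo1 and Rspo2 did not.

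Of the 11 other extracellular modulators, 9 had a shared site. Draxin, an axon guidance protein that also inhibits Wnt signalling, had 123-fold and 56.1-fold, and the Dkk receptor gene Kremen2 had 47.4-fold and 40.4-fold. The Nodal, BMP and Wnt inhibitor gene Cer1 and Trabd2b had no peak of either repeat. In the cytoplasm and nucleus, 16 of 17 had one, led by Gsk3b, which encodes a target of CHIR99021, at 99.5-fold and 54.4-fold and Apc, a scaffold of beta-catenin destruction, at 80.7-fold and 38.3-fold. Dvl2, a cytoplasmic partner of Frizzled, had peaks in both repeats but no shared site. Of 8 feedback and target genes, 5 did, led by Cdx1 (86.8-fold and 75.3-fold), with Axin2 at 21.3-fold and 25.5-fold and Myc at 27-fold and 26.7-fold, and with none at Nkd2, T and Ccnd1. The highest value among the 41 members, 92.4-fold at Wnt3, was thus below those of Wls, Draxin and Gsk3b in repeat 1, and above all 3 of these in repeat 2.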

How the data were processed

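Tfcp2l1 ChIP-seq peak lists of 2 repeats were analysed. Per the file headers, the authors called peaks with MACS 1.4.1 on each ChIP library against its input, with a p-value threshold of 1e-05 and at most 2 duplicate tags per position. CASAVA 1.8.2 is named in the submitters' processing notes. The aligner's name was not given in the sources used here. Per the file headers, deposited values are the tag count of a peak (whole ChIP tags), the score (10 times -log10 of the p-value), the fold enrichment (a ratio of ChIP to local background) and the FDR in percent. Exons and introns are not distinguished here.

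The processing notes name mm9, but peaks on chromosome Y reach 90.8 Mb, and 10.0% and 8.82% of summits lay within 500 bp of a GRCm38 start (2.07% and 2.13% after a 50 kb shift). Genes and promoter sequences came from RefSeq tables of GRCm38.p6, and strand and starts only from the latter. No start was used for Dkk3, Dkk4, Fzd2, Fzd3, Fzd6, Fzd8, Lrp5, Lrp6, Sfrp1, Sfrp4, Wnt10a, Wnt5a, Wnt7b and Wnt8a. Sites were built from overlapping peaks in Python 3.11.15 and tested on simulated peak lists. Intervals are exact Clopper-Pearson intervals from SciPy 1.17.1. Strongest means the best mean rank of fold enrichment over both lists. Detailed are the 3 strongest members per class and the member with most sites, and per pathway list the 2 strongest genes and those without a site. Genes beyond this rule were named after their values were seen. Members and lists were chosen with earlier results of these data known. No test between groups was possible, since all ChIP libraries are of 1 condition.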

Additional observations from a re-analysis of the deposited data

How the results depend on the processing

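No paired analysis was possible because no samples were tested against others: each input was used by the authors' caller alone. The count of genes with a shared site, 31, was 29 with a window of 1 kb (51.4% of all protein-coding genes had a site there) and 40 with 50 kb (80.6%). It was 30 near gene ends only (59.8% of all genes), 28 with overlap of at least 50% of each peak (63.8%), 29 with summits within 100 bp (62.0%), 26 with scores of at least 100 (55.0%) and 25 with at least 10-fold enrichment (50.0%). Counting each site at its nearest gene only, with ties kept at each gene, gave 31. Sites were then 34 at ligands, 20 at receptors and 16 at antagonists, against 35, 24 and 17 in the main count. No share of all genes was computed for this setting. Leaving out a repeat gave 32 to 36 genes, with 13 to 15 ligands, 10 to 12 receptors, 9 antagonists, and 39 to 52, 30 to 32 and 19 to 22 sites. Antagonists fell to 5 of 10 with the score limit and to 4 with the fold limit, losing Sfrp2, Dkk2 and Wif1, and with the fold limit Dkk1. Sites with the score and fold limits were 20 and 19 at ligands, 19 and 16 at receptors and 10 and 8 at antagonists. With 50 kb they were 75, 58 and 36 at ligands, receptors and antagonists, and with 1 kb 13 at receptors. An FDR of 0 in both repeats left 9 genes (6 ligands, 1 receptor and 2 antagonists, with 7, 1 and 2 sites), against 24.9% of all genes, and the strongest receptor site then had a mean of 13.1-fold. In repeat 2 the FDR does not follow the score: none of the 10727 peaks with scores of 300 to 1000 had an FDR of 0, and all 4547 with 150 to 200 did. Leaving out sites in or within 1 kb of another gene, an alternative chosen after seeing the data, kept all 31 genes. A share of all genes was not computed for it. Ordering by tags or by score kept 8 and 9 of the first 10 members. The strongest ligand site was that of Wnt3 with stricter overlap, summit, score, fold and FDR limits, the 5 settings tried for it. The strongest antagonist site was that of Dkk3 in 4 of these 5, and with an FDR of 0 Dkk3 was lost and Sfrp4 led, with a mean of 46.8-fold.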
